A study of Homo sapiens with 6 samples.

Results

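Described here are 10 genes of the AP-1 and immediate early response, *FOS*, *FOSL1*, *FOSL2*, *JUN*, *JUNB*, *JUND*, *ATF3*, *EGR1*, *IER2* and *IER3*, chosen by gene symbol. All 10 were among the 15917 genes of the authors' deposited table. The series holds 6 total RNA-seq libraries of MDA-MB-231, an established human triple-negative breast cancer line. The labels give 2 libraries of cells with a control hairpin (shCTRL, genotype WT), 2 with hairpin shRBMS3-B3 and 2 with hairpin shRBMS3-C3, both hairpins directed at *RBMS3*, which encodes an RNA-binding protein. According to the methods, hairpins were carried by the lentiviral vector pLKO.1-Puro in luciferase-labelled cells selected with puromycin, so that control and knockdown cells shared vector, transduction and selection. Cells grew in medium with serum, and no acute stimulus is described in the labels.

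AP-1 is a dimeric transcription factor made of a JUN protein paired with a FOS, JUN or ATF protein through leucine zippers. JUN proteins can pair with themselves, whereas FOS proteins need a JUN partner. Immediate early genes are switched on within minutes of growth factor or stress signals without new protein synthesis, and many of their mRNAs carry AU-rich elements and are degraded within a short time. In breast cancer lines of the triple-negative type FOSL1, known too as FRA-1, is a well known AP-1 subunit.

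For each gene the measurement used here was the authors' mean normalized count, a single value pooled over libraries. It has no SD and no n. A figure legend describes the comparison behind the table with 2 replicates on each side, whereas the labels hold 4 knockdown libraries, and which of these entered the mean is not named in the sources used here. The comparison of knockdown with control cells in that table is the authors' own and was not used, so no effect of *RBMS3* knockdown on these genes is given, and p-values are absent throughout. The depth of the libraries is unknown. Neighbouring values in an order of levels could therefore not be tested against replicate spread, and the levels below are descriptions of knockdown and control cells pooled. Fewer cells that express a gene and less RNA per cell cannot be told apart in bulk RNA.

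The cells were checked against markers of their line. Of 6 mesenchymal markers 5 were listed, and *SPARC* was not. *VIM* stood at 32190, *AXL* at 7502, *MSN* at 3407, *CD44* at 1850 and *ZEB1* at 174.2 mean normalized counts per kb of transcript. *ZEB1* was above only 56% of genes. Of 9 luminal or epithelial markers 7 were listed. *CDH1* stood at 6.57 per kb, in the lowest 1.58% of genes, and *ESR1* and *PGR* were not listed. *ERBB2* stood at 341.8 per kb, above 72.5% of genes. *EPCAM* stood at 69.3 and *GATA3* at 55.6 per kb. The keratin genes *KRT8*, *KRT18* and *KRT19* stood at 9979, 8980 and 4925 per kb. The blood cell markers *PTPRC* and *CD3E* were not listed. *RBMS3*, the targeted gene, stood at 32.1 per kb, above 17.3% of genes. Not divided by length, its mean normalized count was 271.5, higher than in 43.3% of genes. As a pooled value it checks no label.

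The sequences that carry what follows are the promoters of 4 members with a known control element and 3′UTR sites of 4 members. These 4 are among the 9 members with ATTTA pentamers, and *FOSL1* has only 1 pentamer. Promoters of *EGR1*, *FOS*, *JUNB* and *JUND* are given as the 250 bases before the RefSeq transcription start on GRCh38.p14, 5′ to 3′ on the strand of the gene. Capitals mark CArG boxes in *EGR1*, which bind serum response factor, TATA boxes in *FOS* and *JUNB*, which position the start of transcription, and a cyclic AMP response element (CRE) in *JUND*, to which CREB and ATF proteins bind.
*EGR1*, chr5:138465229-138465478, plus strand: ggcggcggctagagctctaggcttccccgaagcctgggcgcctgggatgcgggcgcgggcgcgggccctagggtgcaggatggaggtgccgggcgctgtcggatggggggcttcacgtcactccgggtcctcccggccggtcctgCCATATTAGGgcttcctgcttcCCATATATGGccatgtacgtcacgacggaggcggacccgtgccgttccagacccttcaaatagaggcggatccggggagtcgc
*FOS*, chr14:75278578-75278827, plus strand: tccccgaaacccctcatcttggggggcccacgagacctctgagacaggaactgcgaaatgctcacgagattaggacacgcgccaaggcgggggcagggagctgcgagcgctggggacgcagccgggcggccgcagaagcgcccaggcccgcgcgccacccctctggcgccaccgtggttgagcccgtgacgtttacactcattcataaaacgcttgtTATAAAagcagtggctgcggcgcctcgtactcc
*JUNB*, chr19:12791236-12791485, plus strand: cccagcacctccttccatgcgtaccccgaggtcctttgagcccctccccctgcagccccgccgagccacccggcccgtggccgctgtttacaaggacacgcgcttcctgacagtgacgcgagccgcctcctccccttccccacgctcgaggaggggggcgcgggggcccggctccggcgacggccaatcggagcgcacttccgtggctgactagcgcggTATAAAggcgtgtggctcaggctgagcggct
*JUND*, chr19:18281623-18281872, minus strand: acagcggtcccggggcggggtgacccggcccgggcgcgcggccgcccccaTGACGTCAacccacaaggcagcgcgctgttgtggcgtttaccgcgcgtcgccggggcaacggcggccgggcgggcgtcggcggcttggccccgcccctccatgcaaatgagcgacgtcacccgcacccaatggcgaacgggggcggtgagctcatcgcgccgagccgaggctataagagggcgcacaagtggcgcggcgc

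AU-rich elements are built of ATTTA pentamers, AUUUA in RNA, to which decay factors bind. For each of *FOS*, *IER3*, *FOSL2* and *FOSL1* the 30 bases of the 3′UTR with the most pentamers are given, from GENCODE release 44 transcripts on GRCh38, with the pentamers in capitals. They start at base 633 of 806 of the 3′UTR in *FOS*, 259 of 737 in *IER3*, 3900 of 4869 in *FOSL2* and 585 of 837 in *FOSL1*. In *FOS* the pair of pentamers shares a base, whereas in *IER3* and *FOSL2* the pentamers are apart.
*FOS*, chr14:75282057-75282086, plus strand: ttgtgtttttaATTTATTTAttaagatgga
*IER3*, chr6:30743648-30743677, minus strand: taattaatATTTAtatgtATTTAtgtacgt
*FOSL2*, chr2:28416348-28416377, plus strand: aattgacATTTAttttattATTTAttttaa
*FOSL1*, chr11:65892272-65892301, minus strand: gagggcagctgctATTTAttttcctaaaga

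Mean normalized counts of the 10 genes ranged from a level above 97.6% of genes to a level above 18.8%. Of the 10 members, 6 stood above the table's upper quartile of 1034, and the other 4 stood below its median of 363.8. Of these 4, *FOS* also stood below the lower quartile of 102.3. The median member had a mean normalized count of 1597, at the 83.2nd percentile. The table starts at a mean of 26.7, so it holds no gene of very low level, and percentiles are among listed genes.

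The FOS family supplies the partners that cannot pair with each other, and its 3 members were far apart. *FOSL1* (chr11:65892049-65900573, minus strand, 4 exons) had a mean normalized count of 7092, rank 389 from the top of the table, the highest of the 10 members. *FOSL2* (chr2:28392448-28417317, plus strand, 4 exons), which encodes FRA-2, had a mean of 4929. *FOS* (chr14:75278826-75282230, plus strand, 4 exons), the founding member and a textbook immediate early gene, had a mean of 69.7, the lowest of the 10. The order within the family was thus *FOSL1*, *FOSL2* and *FOS*.

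Long transcripts collect more reads, so genes were compared with each other per kb of the representative transcript. On this scale *FOSL1*, with a transcript of 1702 bases, stood at 4167 mean normalized counts per kb, *FOSL2*, with 6713 bases, at 734, and *FOS*, with 2104 bases, at 33.1. The level per kb of *FOSL1* was 126 times that of *FOS*, and that of *FOSL2* was 22.2 times that of *FOS*. Of the summed level per kb of the 3 genes, 84.5% came from *FOSL1*, 14.9% from *FOSL2* and 0.672% from *FOS*. Per kb of coding sequence these shares were 63.1%, 36.5% and 0.442%. *FOSL2* has a 3′UTR of 4869 bases, and its level moved most with the choice of length within the family. Per kb of coding sequence *FOSL2* exceeded *FOS* 82.4 times, and *FOSL1* exceeded *FOSL2* 1.73 times, against 5.67 times per kb of transcript. The order of the 3 genes was the same on both scales.

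JUN proteins are the common partners in AP-1, and the representative transcripts of their genes have no introns. Counts of *JUN* (chr1:58776845-58784048, minus strand) averaged 4094, those of *JUND* (chr19:18279694-18281622, minus strand) 1918 and those of *JUNB* (chr19:12791486-12793315, plus strand) 299.7. JUN is the strongest activator of the family, whereas JUNB can hold JUN in check and JUND is known for steady expression. Per kb of transcript *JUN* stood at 1257, *JUND* at 994 and *JUNB* at 164 mean normalized counts. *JUN* and *JUND* were close on this scale, at a ratio of 1.26, and lay further apart per kb of coding sequence, at 2.24. *JUNB* lay below both on either scale, and *JUND* exceeded it 6.07 times per kb of transcript and 6.40 times per kb of coding sequence. *JUN* supplied 52.1% of the summed level per kb of the family, *JUND* 41.2% and *JUNB* 6.78%.

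*JUNB* lies with all of its 1830 bases inside *HOOK2*, a gene of the opposite strand whose mean normalized count was 636.8. The library kit keeps the strand, but the strand setting of the authors' counting is not stated in the sources used here. The overlap is one of gene spans, introns included, and whether exons of *HOOK2* cover *JUNB* was not examined. The part of this overlap in the *JUNB* value was not tested. Overlaps on the opposite strand were also found for *FOSL2* with *FOSL2-AS1* (2233 bases), *IER3* with *HCG20* (759 bases) and *IER3-AS1* (440 bases), and *IER2* with unnamed long noncoding RNA genes (1123 and 662 bases). On the same strand the span of *FOSL2* overlaps that of a further long noncoding RNA gene over 296 bases, where strand alone would not separate reads. None of these noncoding genes was listed in the table.

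*ATF3* (chr1:212565334-212620777, plus strand) encodes a stress-induced factor that pairs with JUN proteins. Its mean normalized count was 162, and its level per kb was 83.7, below the table's median of 136.5 per kb. *EGR1* (chr5:138465479-138469303, plus strand), a zinc finger factor induced by serum, had nearly the same mean of 161. With a longer transcript, 3137 against 1940 bases, *EGR1* stood at 51.2 per kb, below *ATF3*.

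The other immediate early members are not AP-1 subunits. *IER3* (chr6:30743199-30744548, minus strand), which encodes a short protein linked to survival under stress and NF-κB signalling, had a mean normalized count of 4097. *IER2* (chr19:13150411-13154911, plus strand), which encodes a nuclear protein of serum-stimulated cells, had a mean of 1277. *IER3* has a transcript of only 1237 bases and stood at 3312 per kb, 5.47 times the level per kb of *IER2* at 605. *FOSL1* and *IER3* were the top members on each length scale. *FOSL1* exceeded *IER3* 1.26 times per kb of transcript, and per kb of coding sequence the 2 genes were nearly equal, at a ratio of 0.997. Together both genes gave 65.6% of the level per kb summed over the 10 members.

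Ordered by level per kb of transcript, the members ran *FOSL1*, *IER3*, *JUN*, *JUND*, *FOSL2*, *IER2*, *JUNB*, *ATF3*, *EGR1* and *FOS*. Of the 10, 7 stood above the table's median per kb, 6 above the upper quartile and 3 in the top 10%, which are *FOSL1*, *IER3* and *JUN*. Per kb of coding sequence several neighbours changed places. On that scale *FOSL2* at 5039 stood above *JUN* at 4123 and in the top 10% of genes, *IER2* at 1908 stood above *JUND* at 1842, and *ATF3* at 299 stood above *JUNB* at 287.9, which was above only 43.6% of genes there. The median member stood at 670 per kb, above 84.6% of the 15829 genes with a GENCODE transcript.

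**Figure D1:**
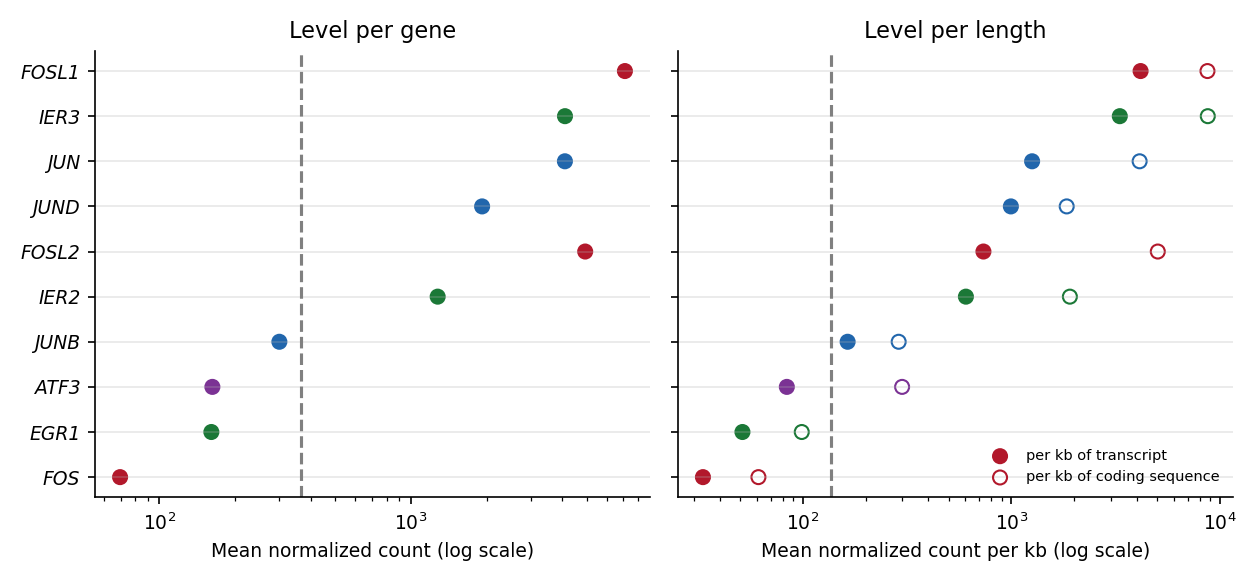
Level of each of the 10 members, given as the authors' pooled mean normalized count per gene (left, log axis) and per kb (right, log axis) of transcript (filled circles) or coding sequence (open circles). Red marks FOS family genes, blue JUN family genes, purple *ATF3* and green the other immediate early genes; the dashed line is the median of all listed genes, on the right per kb of transcript. There are no error bars because the value is pooled. *FOSL1* stands at 4167 and *FOS* at 33.1 per kb of transcript.

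The members were set beside lists of genes from the same pathway, again per kb of transcript. Upstream, the factors that switch on immediate early genes were listed for 7 of 7 genes, with a median of 188 mean normalized counts per kb, at the 58.3rd percentile. *SRF*, which binds CArG boxes, stood at 396 per kb, its partner *ELK1* at 353 and *CREB1*, which binds CREs, at 59.2. The kinases that activate these factors and JUN were listed for 13 of 13 genes, and 10 stood above the median of all genes. Among them *MAP2K2*, which activates ERK, stood at 3308 per kb, *MAPK3*, which encodes an ERK kinase, at 411, and the JNK genes *MAPK9*, *MAPK8* and *MAPK10*, whose kinases phosphorylate JUN, at 654, 104 and 10.4.

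Of 21 further AP-1 family genes and dimer partners, 19 were listed and *BATF2* and *MAF* were not. Their median was 194 per kb, at the 59.2nd percentile, and 11 stood above the median of all genes. *ATF4*, a factor of the integrated stress response, led them at 4562 per kb, and *NFE2L1* followed at 1050. *FOSB*, the remaining FOS family gene, stood at 10.6 per kb, in the lowest 4.25% of genes. Both *FOS* and *FOSB* were thus at low levels in these libraries while *FOSL1* and *FOSL2* were at high levels.

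Of 31 other immediate early genes 25 were listed, with a median of 270.3 per kb, at the 67.2nd percentile, and 17 above the median of all genes. Not listed were *EGR2*, *EGR3*, *EGR4*, *NR4A3*, *DUSP2* and *BTG2*. The listed genes ranged widely. *CCN1*, listed under its older symbol *CYR61* and coding for a matrix protein, stood at 7777 per kb. *CCN2*, listed as *CTGF*, stood at 1973. The ERK phosphatase genes *DUSP4* and *DUSP6*, which limit the signal that induces them, stood at 1961 and 1106. At the other end were the nuclear receptor genes *NR4A1* and *NR4A2*, at 23.6 and 26.3 per kb. *DUSP1*, which encodes a phosphatase of stress kinases, lay between at 248 per kb, above 65.2% of genes.

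Known AP-1 target genes were listed for 9 of 13. The median of these 9 was 1680 per kb, at the 93.8th percentile, the highest of the 5 lists. The 4 targets not listed have no value and do not enter it. *HMGA1*, a chromatin protein gene, stood at 12170 per kb, *CCND1*, which drives entry into the cell cycle, at 4000 and *PLAU*, the urokinase gene, at 2842. *CD44*, which is on the mesenchymal marker list too, stood at 1850. *IL6* at 82.8 and *CXCL8* at 20.9 were the lowest of those listed. The matrix metalloproteinase genes *MMP1*, *MMP3*, *MMP9* and *MMP13* were not listed. These are levels side by side, and whether AP-1 acts on the targets was not tested.

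**Figure D2:**
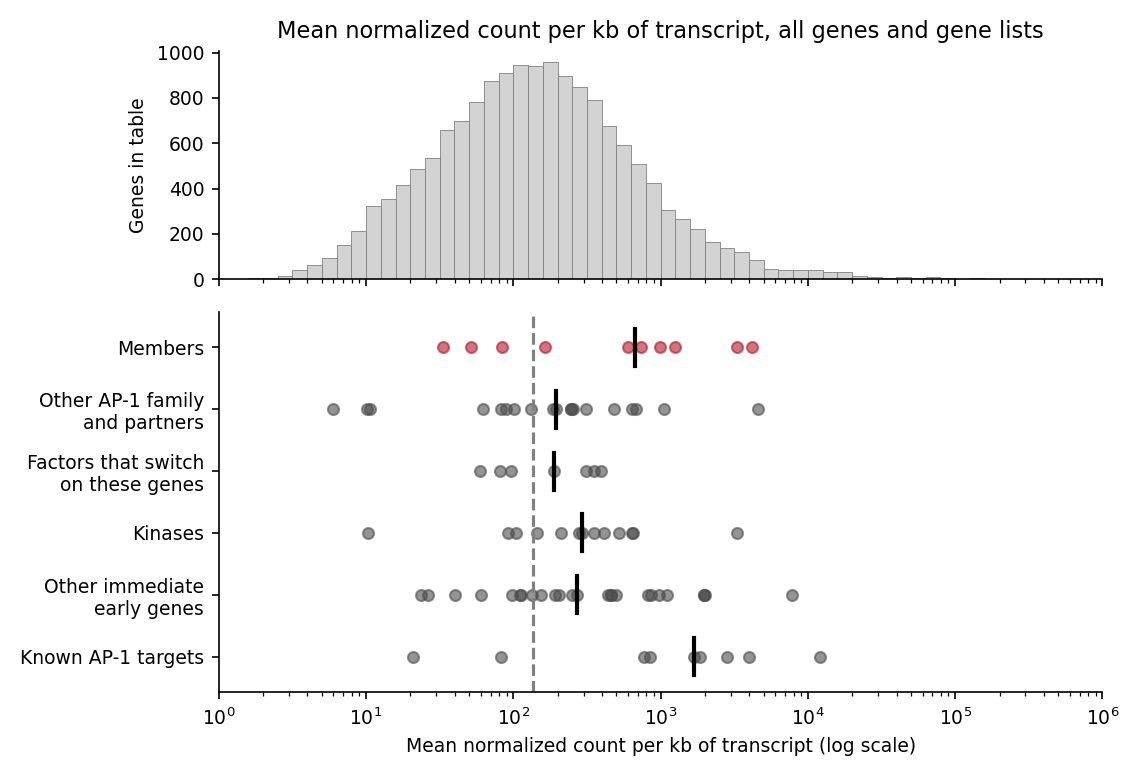
Upper panel, number of listed genes in each bin of mean normalized count per kb of transcript (log axis, 15829 genes); lower panel, each gene of the members and of 5 pathway lists as a circle on the same axis, with the list median as a black bar and the median of all genes, 136.5, as a dashed line. The members run from 33.1 to 4167 with a median of 670, and the listed AP-1 targets have the highest median, 1680.

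The 10 genes share a compact structure that the choice by symbol did not use. Their median transcript has 2022 bases against 3458 over 12350 listed genes with a 3′UTR, and 9 of 10 lie below that median, with *FOSL2* above. The median number of exons is 2 against 9, and all 10 members lie below 9. The representative transcripts of *JUN*, *JUNB* and *JUND* consist of 1 exon, which holds for 1.94% of all these genes. For *JUN* the annotated gene span is 7204 bases and this transcript 3257, so its level per kb rests on that choice. The median span on the genome is 4163 bases against 34970, and *ATF3* alone lies above the latter. The GC content of the transcripts has a median of 57.1% against 48.0%, with all 10 members above, from 50.4% in *ATF3* to 69.9% in *JUND*.

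3′UTRs are short too, with a median of 945 bases against 1378, and again *FOSL2* is the exception. Of the 10, 8 have less A+U in the 3′UTR than the median gene, 49.7% against 57.9% at the medians, and *FOS* at 61.3% and *EGR1* at 59.5% have more. ATTTA, counted on the transcript strand with overlaps, is present in 9 of 10 3′UTRs and in 73.8% of all. *IER2* has none. The median number per gene is 2.5 in the members and 2 in all genes, and per kb of 3′UTR 2.09 against 1.72.

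Since the number of pentamers grows with length, each member was read against 3′UTRs within 20% of its own length. *FOS* has 5 pentamers where the median of 1285 such genes is 1, and 8.02% of them have as many. *IER3* has 6 where the median of 1245 genes is 1, and 3.21% have as many. Both 3′UTRs are dense in pentamers. The mean normalized count per kb was 33.1 in *FOS* and 3312 in *IER3*. Decay was not measured here, and a link of pentamers with level was not tested. *FOSL2* has 9, the largest number of the members, but the median of 1123 genes of like length is 11, and 60.9% have as many. *FOSL1* has 1, equal to the median. *JUN* and *ATF3* have 3 each against a median of 2, *JUNB* has 2 against 1, *JUND* has 1 against 1 and *EGR1* 1 against 2.

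The longer element TTATTTATT, which contains the pentamer, is present in *FOS* and *FOSL2*, 2 of 10, and in 9.85% of all genes. Among 3′UTRs of like length it is present in 5.29% for *FOS* and in 21.8% for *FOSL2*. The stretches of *FOS* and *FOSL2* printed above were chosen for ATTTA, and the longer element was not a criterion.

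The study examined an AUA element bound by RBMS3. It was searched as ATA followed by A or T and then A, preceded by A or T and before that by A, G or T. This pattern is present in 9 of 10 members' 3′UTRs, with *JUND* lacking it, and in 84.8% of all genes. The median number per gene is 1 in the members and 3 in all genes, and per kb of 3′UTR it is 1.30 against 2.43. *FOSL2* has 8 matches where genes of like length have a median of 11, *JUN* has 5 against 3, *EGR1* has 4 against 3 and *JUNB* has 2 against 1. *FOS*, *FOSL1*, *ATF3*, *IER2* and *IER3* have 1 each, below the median of 2 or 3 of genes of like length. A match is a run of letters and does not show binding.

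**Figure D3:**
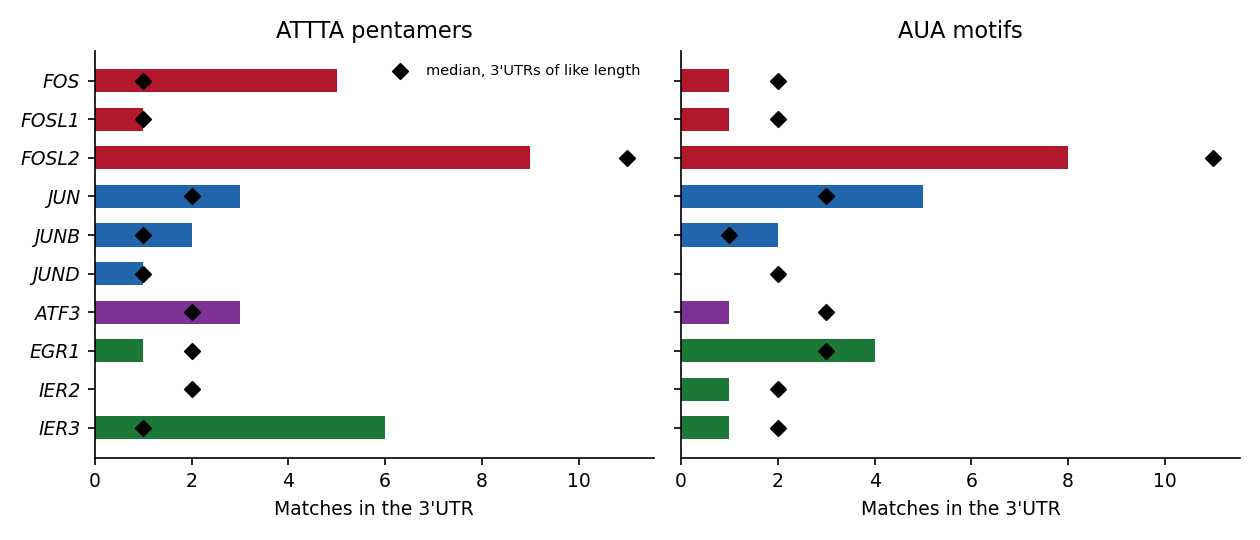
Number of ATTTA pentamers (left) and of AUA motif matches (right) in the 3′UTR of each member; bars are counts in 1 representative GENCODE transcript and start at 0, and diamonds are medians over listed genes with a 3′UTR within 20% of the same length. Colours are those of the gene families. *IER3* (6) and *FOS* (5) lie furthest above their diamonds of 1 pentamer, and *FOSL2* lies below its diamond in both panels.

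RefSeq promoter windows matched 8 members, and *ATF3* has 2 windows, 9 in all. *FOSL1* and *IER3* had no entry. The 250 bases before the start had a median GC content of 68.4% in these windows and 58.0% over 35116 windows of all genes. Only 15474 of the latter are of listed genes, and the median GC content of those alone was not taken. Motifs were searched on both strands of those bases, and shares are over the 35116 windows, whereas members are counted by gene. For each motif a missing match says only that the exact letters are not in those bases. Variants of the motifs and sites further upstream were not searched.

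TATAAA is present in 3 members, *FOS*, *JUNB* and *ATF3*, and in 10.7% of windows, or 6.06% of the windows of listed genes. In *FOS* it lies 33 to 28 bases and in *JUNB* 31 to 26 bases before the start, in capitals in the promoters printed above. In *ATF3* it is present in the second window alone and lies 230 to 225 bases before the start, away from the place of the TATA box in *FOS* and *JUNB*. That window (chr1:212614768-212615017) lies inside the *ATF3* gene span. The *FOSL2* window (chr2:28392608-28392857) likewise lies inside the *FOSL2* gene span. Use of either window as a promoter in these cells was not tested. CArG boxes, CC and GG around 6 letters A or T, are present in *EGR1* and in 1.16% of windows. *EGR1* has a pair, CCATATTAGG at 105 to 96 bases and CCATATATGG at 83 to 74 bases before the start.

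The full CRE, TGACGTCA, is present in *JUND*, 200 to 193 bases before the start, and in 1.65% of windows. The AP-1 site TGACTCA, named TRE for its response to phorbol ester, is present in 0 of the 8 members and in 4.20% of windows, and no match says only that these letters are not in these bases. The GC box GGGCGG, a site of SP1, is present in 6 members, *JUN*, *JUND*, *FOS*, *FOSL2*, *ATF3* and *IER2*, and in 42.6% of windows, or 62.6% of the windows of listed genes. The CRE and CArG patterns read the same on both strands. A CArG box can contain TATAAA, but neither CArG box of *EGR1* does. *FOS* and *JUNB*, with a TATA box close to the start, stood at 33.1 and 164 mean normalized counts per kb of transcript. *EGR1* with CArG boxes stood at 51.2 and *JUND* with the CRE at 994. *FOSL1* and *IER3*, the highest members on this scale, had no window, and a link of motif with level was not tested.

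**Figure D4:**
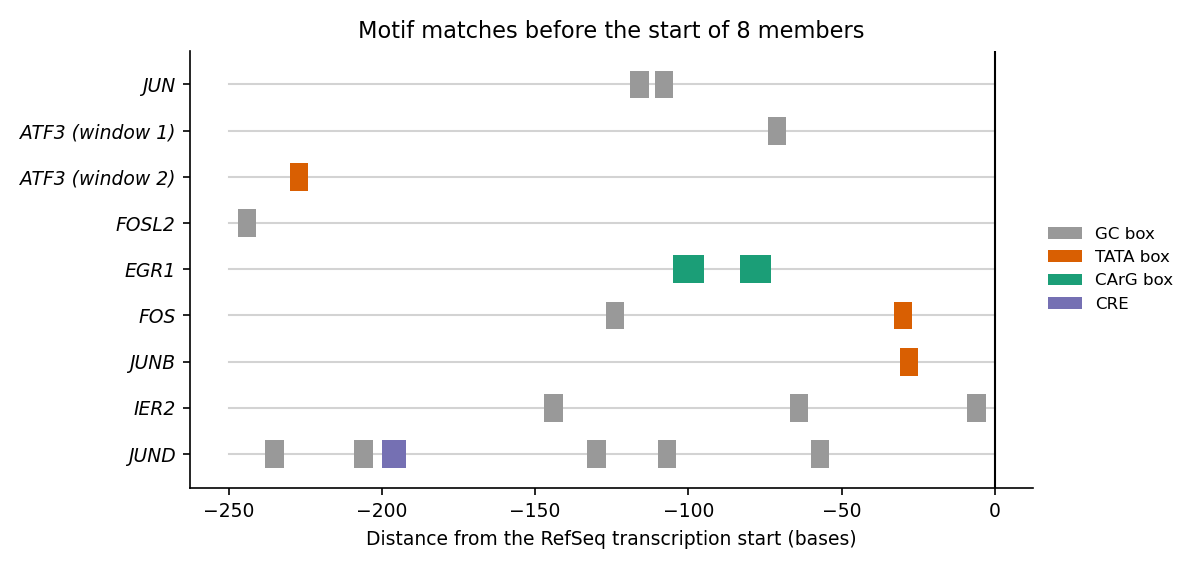
Motif matches in the 250 bases before the RefSeq transcription start of 8 members (x axis, distance in bases, start at 0), with *ATF3* in 2 windows. Boxes span the matched bases on either strand and colours give the motif. The TATA boxes of *FOS* and *JUNB* lie close to the start, *EGR1* holds 2 CArG boxes and *JUND* a CRE and 5 GC boxes.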

How the data were processed

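Total RNA of 6 MDA-MB-231 libraries, 2 for each of the 3 hairpin groups of the labels, was converted to stranded cDNA with depletion of ribosomal cDNA and sequenced by the authors. The submitters' processing notes name Salmon, DESeq2 and hg38, with no version; the annotation and the strand setting are not given in the sources used here. The deposited signal is the authors' mean normalized count per gene, a pooled value without SD. The other columns of the table hold the authors' comparison of knockdown with control cells (log2 fold change, its standard error, statistic, p-value and adjusted p-value) and were not used. A count test had been planned for values per library and was not run.

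By Ensembl identifier, 15829 genes matched GENCODE release 44 (GRCh38) and 88 did not. A representative transcript per gene gave lengths, exons and 3′UTRs of at least 7 bases, and levels were divided by transcript length in kb (1000 bases). Promoters came from the RefSeq table. All printed sequences equal hg38 at their coordinates. Text names the 10 members, *RBMS3* and genes of pathway and marker lists; members and lists were chosen with earlier results of these data known. Of the lists, examples are named, and a gene of the kinase list is not reported here. Scripts were tested on simulated data. Python 3.11.15, pandas 2.3.3, numpy 2.4.6 and matplotlib 3.10.9 were used.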

Additional observations from a re-analysis of the deposited data

How the results depend on the processing

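Of 24 alternative values 12 were the same or, for counts of members, within 1.5 times, and 12 moved. The median percentile of the members' levels, 83.2, was 79.7 among protein-coding genes only and 84.6 per kb of transcript, and 87.8 per kb of coding sequence. With coding length in place of transcript length, *FOSL1* over *FOS* went from 126 to 143, *JUN* over *JUNB* from 7.67 to 14.3 and *IER3* over *IER2* from 5.47 to 4.59. When windows were limited to 15474 of listed genes, the share with a TATA box went from 10.7% to 6.06%, with a CRE from 1.65% to 2.48%, with a TRE from 4.20% to 3.03%, with a CArG box from 1.16% to 1.11% and with a GC box from 42.6% to 62.6%. A TRE was found in 1 member, *FOSL2*, when the 50 bases after the start were searched as well. On the plus strand alone 4 members had a GC box. The longest 3′UTR of each gene gave the same numbers of members with each motif.

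No paired analysis was possible because each gene has a single mean over libraries. For the same reason other normalizations, a filter on low counts, DESeq2 and leaving out a replicate were not run. No symbol was listed more than once, so the choice among repeated rows changed nothing. Depth is unknown, and the lack of replicate values limits every order of levels given here.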
